A study of Mus musculus with 12 samples.

Results

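The interferon-high transfected libraries are 3 RNA-seq libraries of L929 cells that carry a plasmid label and hold an Ifit1 level of at least 10 FPKM, a measure of fragments per unit of exon length and of sequencing depth. They are pEGFP-N1 replicate 1, pEGFP-N1 replicate 3 and the library labelled BX795 plus pEGFP-N1 replicate 1, and they make up 3 of the 6 plasmid-labelled libraries and 3 of the 12 libraries of the series. They were compared with the 3 mock libraries. The study used L929, a single established mouse fibroblast line from connective tissue of the C3H/An strain, and asked how the interferon response to plasmid DNA relates to expression from the plasmid. Cells received DMSO or 0.5 μM BX795, an inhibitor of the kinases TBK1 and IKKε, for 1 h. They were then transfected with pEGFP-N1, a plasmid that encodes a green fluorescent protein, by a lipid reagent for 6 h, or left without plasmid. Mock stands for the libraries labelled DMSO. Whether mock cells received the lipid alone is not given in the sources used here. Each of the 4 groups had 3 libraries, and the labels do not say that these came from separate cultures, so the p-values given later measure only the spread between these libraries.

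Plasmid DNA that reaches the cytosol is sensed by cGAS, which signals through STING and TBK1 to the factors that switch on interferon beta and a first set of antiviral genes. Secreted type I interferon binds its receptor and, through JAK kinases and transcription factors of the STAT and IRF families, switches on interferon-stimulated genes by way of interferon-stimulated response elements in their promoters. The products of these genes bind or degrade foreign RNA, modify proteins, present antigen and draw in leukocytes, and L929 cells have long been used to measure interferon because of this response.

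The 3 libraries were chosen by a measured value, Ifit1, so everything that sets them against mock is a description and was not tested. Ifit1 stood at 96.67 and 95.24 FPKM in pEGFP-N1 replicates 1 and 3 and at 92.64 FPKM in BX795 plus pEGFP-N1 replicate 1. The highest value among the plasmid-labelled libraries left out was 0.57 FPKM, and mock libraries held between 0.18 and 0.20 FPKM. No library lay near the limit. Ifit1 enters no count below.

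One of the 3 libraries went against its label. A set of 236 genes that differed between the libraries labelled BX795 and mock was placed, in each library, on a scale with the mock mean at 0 and the BX795 mean at 1. The library labelled BX795 plus pEGFP-N1 replicate 1 had a median position of -0.034, with 19 of the 236 genes at 0.5 or more, beside -0.065 and -0.032 for pEGFP-N1 replicates 1 and 3. BX795 plus pEGFP-N1 replicates 2 and 3 lay at 0.965 and 0.840. The library labelled pEGFP-N1 replicate 2, which held no Ifit1, lay at 1.02, with 232 of the 236 genes at 0.5 or more. Over 7605 genes with at least 5 FPKM in every library that were neither raised nor lowered by the rule given below, the deviations of BX795 plus pEGFP-N1 replicate 1 from the mean of all libraries correlated with those of pEGFP-N1 replicate 1 at r = 0.851 and with those of pEGFP-N1 replicate 3 at r = 0.809. Those of pEGFP-N1 replicate 2 correlated at r = 0.843 and r = 0.838 with BX795 replicates 2 and 3, at r = 0.122 with BX795 replicate 1, and at r = 0.362 and r = -0.201 with BX795 plus pEGFP-N1 replicates 2 and 3. The last pair correlated with each other at r = 0.0133. Which group pEGFP-N1 replicate 2 belongs to was not tested. The points of these correlations are genes of the same libraries and are not independent. An exchange of the labels of BX795 plus pEGFP-N1 replicate 1 and pEGFP-N1 replicate 2 would change what the comparisons by label mean. It was not tested beyond these values. BX795 replicate 1, at 0.911 on the scale it helped to set, correlated at r = 0.624 with BX795 plus pEGFP-N1 replicate 2. With BX795 replicates 2 and 3 it correlated at r = 0.244 and r = 0.233. Whether the labels of the BX795 group hold was not tested. The labels were left as given, and counts for pEGFP-N1 replicates 1 and 3 alone are therefore printed beside the main count.

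**Figure D1:**
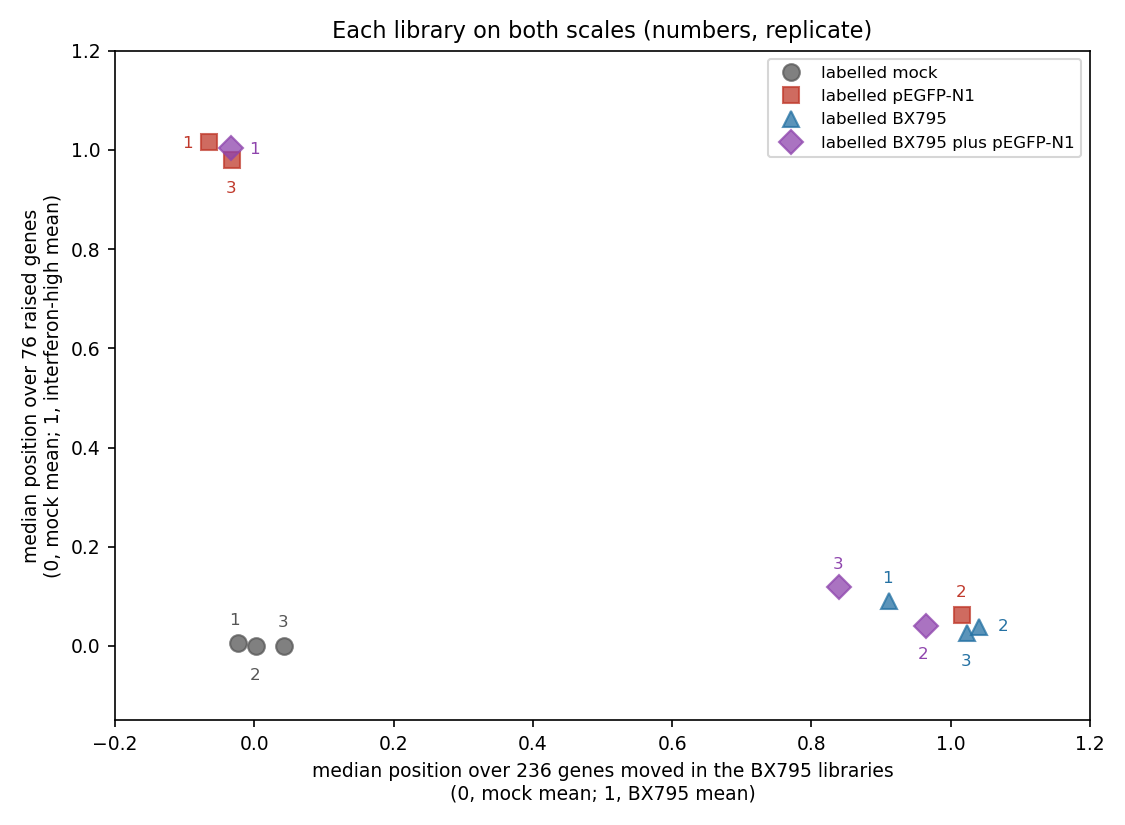
Each point is 1 of the 12 libraries, with its replicate number and its shape and colour giving its label. The horizontal axis is the median position over 236 genes that differed between BX795 and mock libraries, the vertical axis the median position over the 76 genes raised in the interferon-high libraries (both without units). The 3 interferon-high libraries sit together near 1 on the vertical and near 0 on the horizontal axis, while the library labelled pEGFP-N1 replicate 2 lies among the BX795 libraries.

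The genes furthest above mock were known interferon-stimulated genes, and the promoter sequences of several carry the matching response element. Promoter windows, 250 bases before to 50 bases after a RefSeq transcript start in GRCm38.p6, are printed here 5′ to 3′ on the gene's strand for 5 of the 10 genes with the largest differences. Capitals mark matches, on either strand, to GAAANNGAA, the core of the interferon-stimulated response element, and to GGANTTTCC, an NF-κB type site, where N is any base. Overlapping matches run together. The first 4 windows hold the element and the last, from a gene with a difference as large, holds neither set of letters.
Cxcl10 (chr5:92348840-92349139, minus strand): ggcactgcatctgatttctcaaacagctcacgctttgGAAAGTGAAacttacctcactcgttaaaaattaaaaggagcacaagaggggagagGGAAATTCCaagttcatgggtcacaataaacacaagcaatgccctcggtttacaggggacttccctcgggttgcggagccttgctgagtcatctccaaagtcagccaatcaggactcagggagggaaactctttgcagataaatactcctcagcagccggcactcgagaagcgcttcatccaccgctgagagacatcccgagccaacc
Isg15 (chr4:156200769-156201068, minus strand): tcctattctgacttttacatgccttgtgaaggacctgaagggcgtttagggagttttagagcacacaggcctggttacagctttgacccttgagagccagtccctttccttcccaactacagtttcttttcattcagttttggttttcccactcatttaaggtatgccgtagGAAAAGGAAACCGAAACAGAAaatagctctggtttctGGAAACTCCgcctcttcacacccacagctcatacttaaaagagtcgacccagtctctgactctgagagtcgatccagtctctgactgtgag
Rsad2 (chr12:26456403-26456702, minus strand): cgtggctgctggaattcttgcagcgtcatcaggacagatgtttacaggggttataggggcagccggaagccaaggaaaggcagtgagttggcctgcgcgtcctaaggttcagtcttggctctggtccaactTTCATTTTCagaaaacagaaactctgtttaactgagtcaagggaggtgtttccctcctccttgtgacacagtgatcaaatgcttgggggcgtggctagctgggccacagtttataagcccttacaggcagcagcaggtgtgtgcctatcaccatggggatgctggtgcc
Ifit3 (chr19:34583279-34583578, plus strand): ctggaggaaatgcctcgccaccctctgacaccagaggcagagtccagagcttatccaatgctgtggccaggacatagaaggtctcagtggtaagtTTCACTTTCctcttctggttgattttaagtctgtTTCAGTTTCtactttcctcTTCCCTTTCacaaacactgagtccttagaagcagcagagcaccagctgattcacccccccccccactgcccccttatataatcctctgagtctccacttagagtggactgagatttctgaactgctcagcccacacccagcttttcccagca
Oasl1 (chr5:114922990-114923289, plus strand): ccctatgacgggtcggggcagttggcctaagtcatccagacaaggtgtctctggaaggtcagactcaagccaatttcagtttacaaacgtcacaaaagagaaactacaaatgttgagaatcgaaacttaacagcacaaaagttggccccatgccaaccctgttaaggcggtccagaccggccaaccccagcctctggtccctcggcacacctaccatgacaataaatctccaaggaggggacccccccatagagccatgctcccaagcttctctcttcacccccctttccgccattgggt
The Isg15 window held 3 overlapping response element matches centred at -74, -68 and -62 from the start, and Ifit3 held 3 at -151, -117 and -98. Cxcl10 and Isg15 were the only raised genes with a window that held both kinds of match.

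Of 17571 genes in the table, 10222 reached at least 1 FPKM in at least 3 of the 6 libraries. A gene was called raised where its mean log2(FPKM + 1) was at least 1 higher in the interferon-high libraries than in mock and all 3 values lay above all 3 mock values. By this, 76 of 10222 genes (0.743%) were raised and 2 (0.0196%), Gm2046 and Gm21936, were lowered by as much. With a difference of at least 0.5, 170 genes (1.66%) were raised and 61 (0.597%) lowered. Since the libraries were chosen within this same contrast, nothing is read from these shares. The median difference over all 10222 genes was -0.02. The filter itself admitted 59 genes through the interferon-high libraries alone, and 32 of the 76 raised genes were among them. With pEGFP-N1 replicates 1 and 3 alone, 77 genes were raised, 75 of them shared with the 76, and 44 when the filter ran over those 5 libraries, which no longer admits a gene through the interferon-high libraries alone.

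The median mock level of the raised genes was 1.40 FPKM, against 14.6 FPKM for all genes compared, and 32 of the 76 had a mock mean under 1 FPKM while 11 had at least 10 FPKM. The filter sets part of this, since a gene under 1 FPKM in every mock library entered only if it was high elsewhere. For genes with at least 1 FPKM in a mock library, the median mock level was 4.64 FPKM over 44 raised genes and 14.8 FPKM over all. Together they held 0.178% to 0.184% of the FPKM sum in mock libraries and 0.687% to 0.707% in interferon-high libraries. Without the chemokines Ccl2 and Ccl7, which were already abundant in mock, these shares were 0.0752% to 0.0765% and 0.428% to 0.445%. In RNA from whole cultures, a gene raised in every cell and a larger share of responding cells cannot be told apart.

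**Figure D2:**
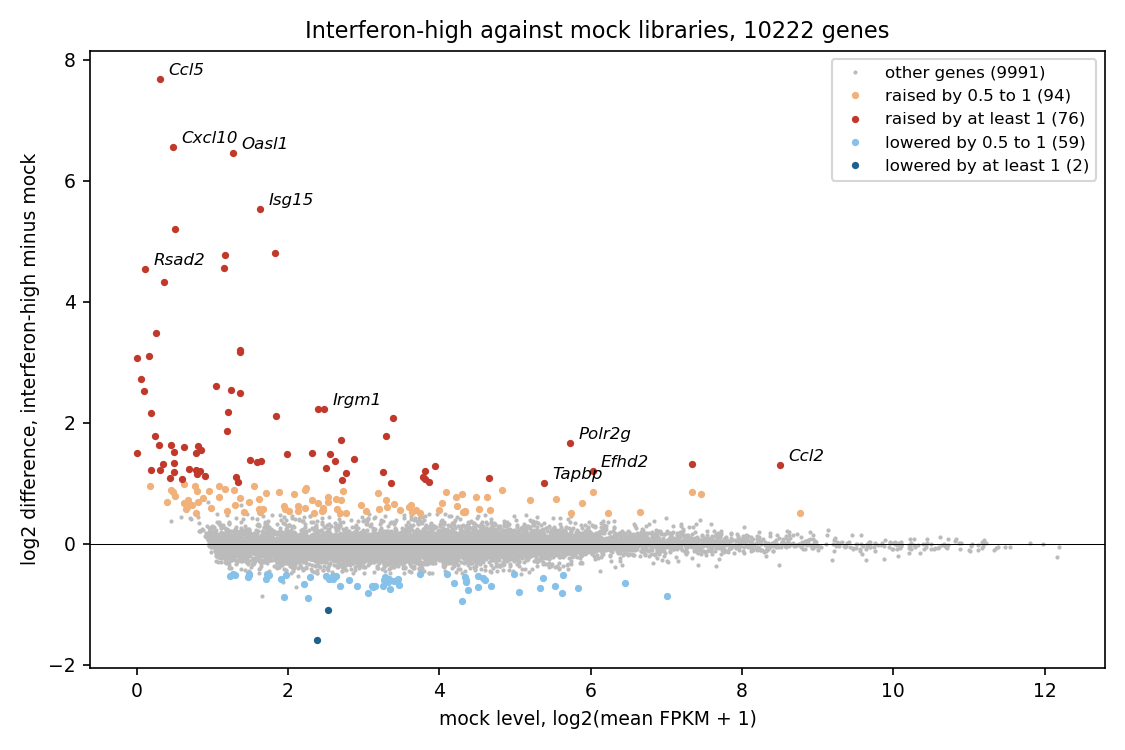
Each point is 1 of 10222 genes, by its mock level (horizontal, log2 of the mean FPKM + 1) and its difference between the 3 interferon-high and the 3 mock libraries (vertical, log2). Large differences sit at low mock levels, with Polr2g, Efhd2, Tapbp and Ccl2 as raised genes of high mock level.

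The median SD of the 76 raised genes was 0.076 over the 3 interferon-high libraries and 0.077 over mock on the log2 scale. The library labelled BX795 plus pEGFP-N1 replicate 1 differed from the mean of pEGFP-N1 replicates 1 and 3 by a median of 0.01 over these genes. It lay between them for 32 genes, above both for 24 and below both for 20.

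The 2 largest differences were those of the chemokines Ccl5 and Cxcl10, while other chemokines differed less. Ccl5, which draws T cells and monocytes, read 0.52, 0.10 and 0.10 FPKM in mock and 253.27, 242.57 and 259.53 FPKM in the interferon-high libraries (pEGFP-N1 replicates 1 and 3, then BX795 plus pEGFP-N1 replicate 1, the order kept below), a log2 difference of 7.69. Cxcl10, a ligand of the chemokine receptor CXCR3, read 0.31, 0.47 and 0.42 FPKM in mock. In the interferon-high libraries it read 133.07, 123.11 and 136.09 FPKM, a difference of 6.56. Both were close to 0 in every mock library. Ccl4 was listed at 0 in all 3 mock libraries and read 6.51, 7.23 and 8.52 FPKM. Ccl2 and Ccl7, which draw monocytes, started high. Ccl2 read 372.37, 375.73 and 340.98 FPKM in mock and 908.44, 872.38 and 895.19 FPKM in the interferon-high libraries, a difference of 1.30. Ccl7 had a difference of 1.32, from a mean of 160.3 to one of 401.7 FPKM, and the cytokine Il6 one of 1.07 between means of 0.51 and 2.17 FPKM. Of 10 listed chemokine and cytokine genes compared, 5 were raised, against 0.743% of all genes compared, with a median difference of 0.87. Of those 5, 3 passed the filter through the interferon-high libraries alone. Ccl4 and the cytokine Il33 (1.21) were also raised but are not on this list. Ifnb1, the interferon beta gene, was listed at 0 in mock and at 0.08 FPKM in each interferon-high library, under the filter. It also read 0.16 FPKM in BX795 replicate 3, so values this low were not particular to the interferon-high libraries.

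Antiviral effectors held 11 raised genes of 23 compared, against 0.743% of all genes compared, with a median difference of 0.85, and 20 of the 23 lay above all mock values, as did 17.5% of all genes compared. Of the 23, 7 passed the filter through the interferon-high libraries alone, 5 of them raised. Oasl1, a 2′-5′ oligoadenylate synthetase-like protein, read 1.49, 1.59 and 1.19 FPKM in mock and 211.53, 208.41 and 214.25 FPKM in the interferon-high libraries, a difference of 6.46. Its neighbour Oasl2 read 0.68, 0.34 and 0.24 FPKM in mock and 51.93, 50.73 and 49.36 FPKM, a difference of 5.20. Isg15, the ubiquitin-like modifier, read 1.46, 2.22 and 2.61 FPKM in mock and 151.74, 129.16 and 143.85 FPKM, a difference of 5.54. The mean FPKM of these genes stood higher by 149-fold for Oasl1, 121-fold for Oasl2 and 67.5-fold for Isg15. Rsad2, which encodes viperin, read 0.12, 0.05 and 0.08 FPKM in mock and 25.05, 23.25 and 24.22 FPKM, a difference of 4.54. Ifit3 and Ifit3b, which bind foreign RNA, had differences of 4.33 and 3.10, and Ifit2, with 5.14 FPKM already in mock, had 1.36. Oas1a and Oas1g, which make 2′-5′ oligoadenylates, had differences of 2.22 and 1.86. Not every effector stood higher: the cytidine deaminase Apobec3 (-0.08) and the membrane protein Ifitm2 (-0.03) did not, and Ifitm3 had a difference of 0.85 from a mock level of 155.69 to 169.34 FPKM.

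Cytosolic nucleic acid sensors differed in how far they stood from mock. The RNA helicase Ifih1 (MDA5) read 0.18, 0.16 and 0.24 FPKM in mock and 13.01, 12.51 and 11.44 FPKM in the interferon-high libraries, a difference of 3.48. Dhx58 (LGP2) and Ddx58 (RIG-I) had differences of 3.17 and 2.49, and Zbp1, a sensor of Z-form nucleic acid, had 2.17. These 4 were the raised genes of 13 compared, against 0.743% of all genes compared, with a median difference of 0.46. Cgas, the DNA sensor, read 2.82, 1.94 and 2.58 FPKM in mock and 2.72, 2.83 and 2.56 FPKM, so that the groups overlapped. Sting1, the adaptor of cGAS, lay lower, at 5.38, 6.26 and 5.73 FPKM in mock and 4.48, 3.75 and 3.83 FPKM, a difference of -0.44. Differences were -0.09 for Tbk1, 0.13 for Ikbke, 0.04 for Mavs, the adaptor of the RNA helicases, and 0.09 for Eif2ak2, a kinase activated by double-stranded RNA. Ifi204 and Ifi203, of the HIN-200 family, had differences of 0.72 and 0.46.

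Interferon signalling had 3 raised genes of 17 compared, against 0.743% of all genes compared, with a median difference of 0.35. In this list and in that of the sensors, 2 genes each passed the filter through the interferon-high libraries alone. The raised genes were Stat2 (1.72), the transcription factor Irf1 (1.02) and Usp18, the protease that removes ISG15 (1.60). Irf1 lay at the threshold and fell under it without mock replicate 1 (0.98) or mock replicate 2 (0.99). Stat2 read 5.12, 5.87 and 5.55 FPKM in mock and 21.06, 20.61 and 19.54 FPKM in the interferon-high libraries. Its partner Irf9 had a difference of 0.88, and Irf7, which amplifies interferon production, had 0.86. The receptor chains Ifnar1 (-0.13) and Ifnar2 (-0.01) and the kinases Jak1 (-0.12) and Tyk2 (-0.07) were all within 0.2 of mock.

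Of 14 genes for ISG15 conjugation, ubiquitin ligases and poly(ADP-ribose) polymerases, 4 were raised by at least 1 and 10 by at least 0.5 (median difference 0.80), against 0.743% and 1.66% of all genes compared, and 6 of the 14, all 4 of the former included, passed the filter through the interferon-high libraries alone. Those raised by at least 1 were the ISG15 ligase Herc6 (1.51), the polymerase Parp14 (1.62), and the ligases Trim21 (1.51) and Trim30a (1.15). Of 14 guanylate-binding and immunity-related GTPases in the table, 5 passed the filter, 4 of them through the interferon-high libraries alone, so their count and median are set by the filter. Irgm1 read 4.40, 4.35 and 4.98 FPKM in mock and 26.18, 23.51 and 25.67 FPKM in the interferon-high libraries, a difference of 2.23, and Gbp3 had 2.53, Irgm2 1.33 and Igtp 1.18. The other 9 fell under the filter. Mx1, Mx2, Parp12 and Gbp5 were not analysed here.

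Class I antigen presentation had 2 raised genes of 19 (0.743% of all genes compared), and 13 of the 19 lay above all mock values (17.5% of all genes compared) with a median difference of 0.21. Tapbp, which loads peptides onto class I molecules, read 38.80, 42.00 and 41.08 FPKM in mock and 80.90, 79.61 and 87.02 FPKM, a difference of 1.0. It fell under the threshold without BX795 plus pEGFP-N1 replicate 1 (0.97) or without mock replicate 1 (0.97), which leaves 1 raised gene in this list. H2-T24 had 1.61 and was the 1 gene of this list that passed the filter through the interferon-high libraries alone. The classical molecules H2-K1 (0.06) and H2-D1 (0.03) and B2m (-0.03), abundant in mock, showed little difference.

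NF-κB feedback genes and targets had 1 raised gene of 12 (Tlr2, 1.40), against 0.743% of all genes compared, and a median of 0.23, with 9 of 12 above all mock values (17.5% of all genes compared), among them the inhibitors Nfkbia (0.37) and Tnfaip3 (0.48). Nuclear body and Schlafen genes had 3 raised of 11 (Sp140, Sp110 and Slfn2), against 0.743% of all genes compared, and Sp110 passed the filter through the interferon-high libraries alone. Sp110 and Sp140 overlap on chromosome 1, so reads in the shared part could be counted for either. Cell death genes had 0 raised of 14, with a median of -0.08. Mlkl, the pore former of necroptosis, was the furthest above mock at 0.82, from 20.59, 18.83 and 16.56 FPKM to 33.16, 33.67 and 33.84 FPKM, and the BH3-only gene Bbc3 had 0.69.

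Gene groups outside the interferon response were set beside the median of -0.02 over all genes compared. Their medians were 0.04 over 16 immediate early and ERK feedback genes, 0.10 over 12 p53 targets with Plk2 raised (1.06), -0.01 over 14 stress genes, -0.01 over 16 sterol and fatty acid synthesis genes and 0.02 over 15 DNA replication genes. Single members stood apart, with the immediate early genes Egr1 (0.95) and Myc (0.52) and the stress genes Hmox1 (0.78) and Chac1 (0.53) raised by at least 0.5. Of the 12 p53 targets, 8 lay above all mock values and 0 below, beside 17.5% and 25.4% of all genes compared. The 15 mitosis genes had a median of -0.10, with 7 below all mock values and 0 above, beside 25.4% and 17.5% of all genes compared. The 11 fibroblast matrix and contractile genes had a median of -0.20, with 8 below all mock values (25.4% of all genes compared), led by the collagen gene Col1a2 (-0.56) and the receptor Pdgfrb (-0.50). Col1a2 read 41.14, 41.48 and 38.04 FPKM in mock and 27.57, 26.50 and 26.60 FPKM in the interferon-high libraries. As fibroblast markers, S100a4, Vim, Sparc, Col1a1 and Col1a2 were at 26.50 FPKM or more in all 6 libraries and Tagln was at 0.78 to 1.16 FPKM. Thy1 did not exceed 0.13, Postn 0.06 and Thbs1 0.02 FPKM, and Lox and Ccn2 were listed at 0. Of 14 markers of leukocytes, epithelium and endothelium, Cd68 read 112.58 to 119.24 FPKM in mock and 131.80 to 137.67 FPKM in the interferon-high libraries, which do not overlap, a log2 difference of 0.22. The sum of the other 13 was 0.25 to 0.47 FPKM in mock and 0.41 to 0.63 FPKM in the interferon-high libraries, and the part of these markers in the differences was not tested.

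**Figure D3:**
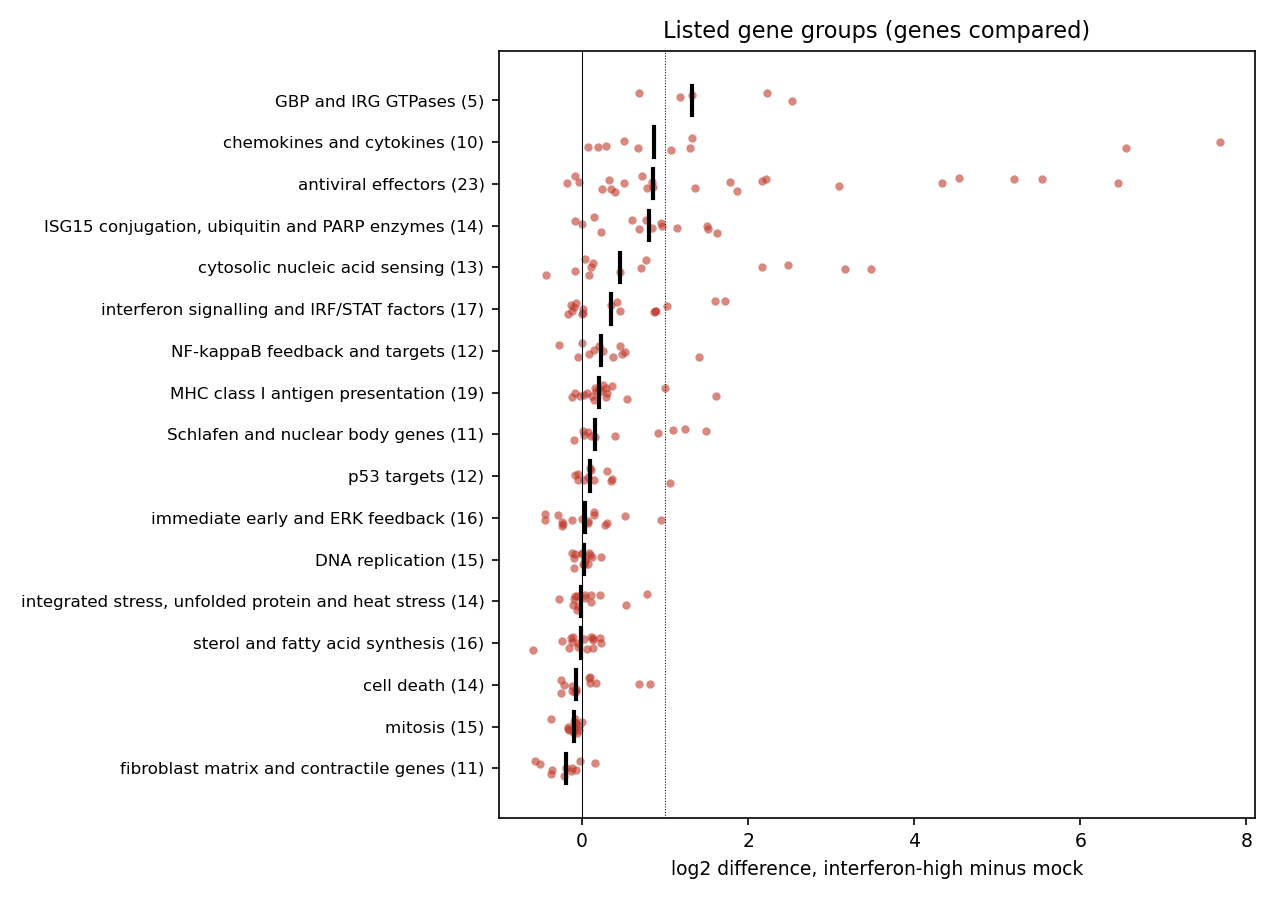
Each point is a gene and each vertical bar the median of its group, on the log2 difference between the 3 interferon-high and the 3 mock libraries (horizontal). The number of genes compared stands in brackets and the dotted line marks a difference of 1. Medians run from 1.33 for the GTPases, of which 4 of 5 passed the filter through the interferon-high libraries alone, to -0.20 for fibroblast matrix genes.

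Of the 76 raised genes, 38 stood on none of these lists, and those here were named after their values were seen or by their rank. Apol9a and Apol9b, apolipoprotein L genes, had differences of 4.80 and 4.56, and Apol7a 2.08. Rtp4, a chaperone of receptor transport, had 4.77, Samd9l 3.21 and Ifi207 2.11. Genes with no place in the antiviral response by name were also raised. Hdc, which makes histamine, read 0.02, 0.02 and 0.09 FPKM in mock and 6.43, 5.24 and 6.07 FPKM in the interferon-high libraries, a difference of 2.73. Plat, the tissue plasminogen activator, read 1.05, 1.02 and 1.14 FPKM in mock and 12.52, 11.04 and 11.47 FPKM, a difference of 2.61. Sox9, a transcription factor of cartilage, read 4.86, 4.95 and 4.82 FPKM in mock and 15.39, 14.93 and 15.69 FPKM, a difference of 1.47. Among abundant genes, Polr2g, a subunit of RNA polymerase II, read 52.52, 54.79 and 48.83 FPKM in mock and 174.34, 161.71 and 164.34 FPKM, a difference of 1.66. Efhd2, a calcium-binding protein, had 1.21, from a mean of 64.1 to one of 149.2 FPKM.

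**Figure D4:**
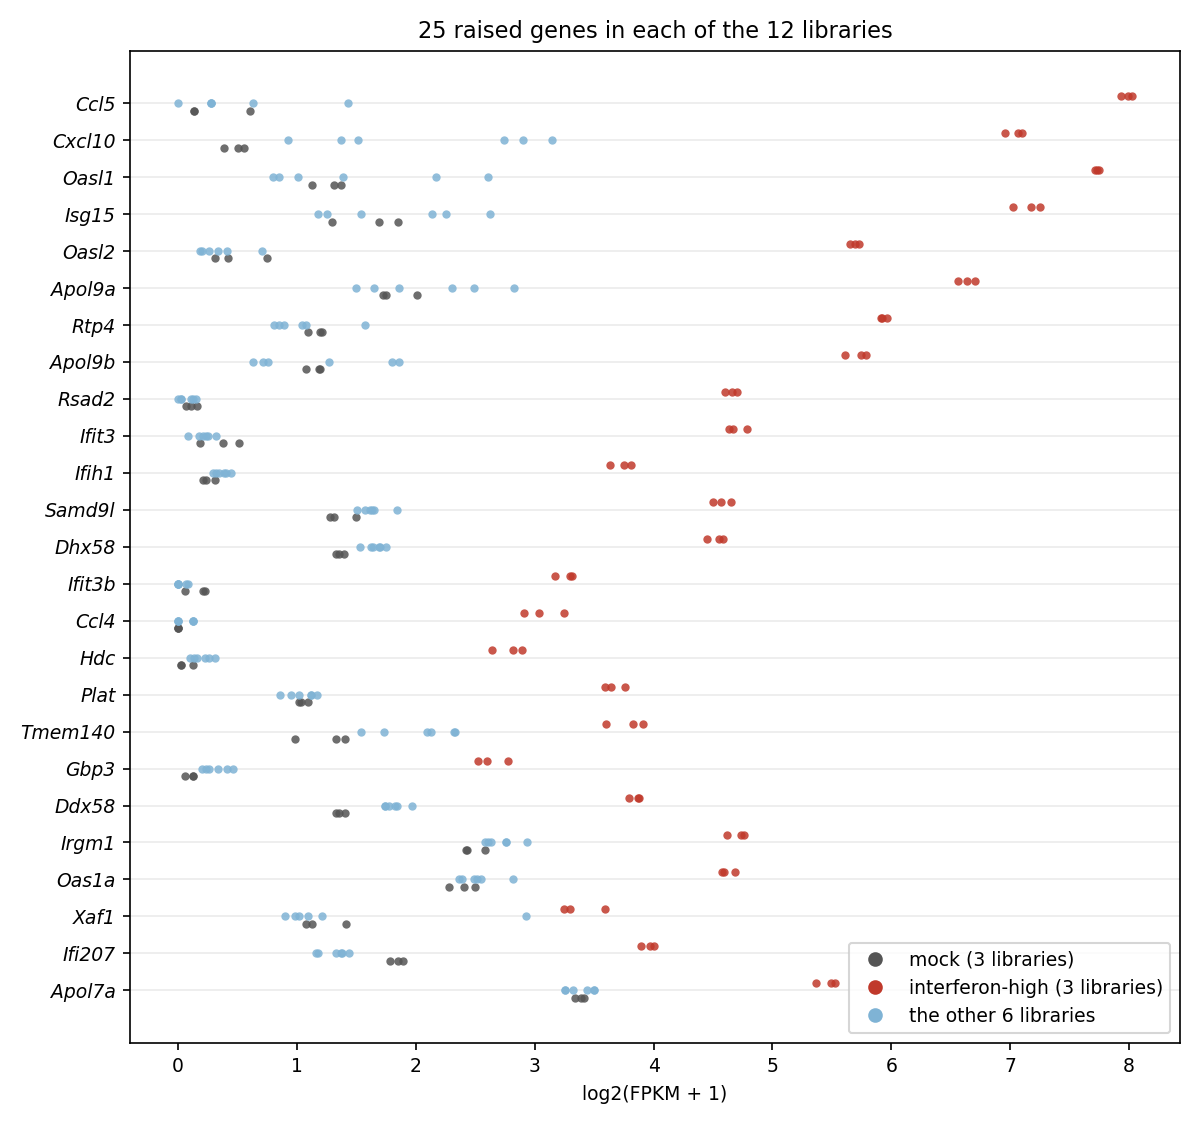
Each point is a library, for the 25 raised genes with the largest differences and a mean of at least 5 FPKM in the interferon-high libraries, on log2(FPKM + 1) (horizontal). Grey points are the 3 mock, red the 3 interferon-high and blue the other 6 libraries. The red points lie above all others for every gene shown. For Xaf1 the blue point of BX795 plus pEGFP-N1 replicate 3 (6.59 FPKM) comes near the lowest red point (8.47 FPKM).

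Some raised genes were neighbours on the chromosome. Of 75 raised genes with a position, 22 formed 12 pairs with no other compared gene starting between them. The gap was under 20000 bases in 10 of these pairs, which held 19 genes, and was 317966 bases between Apol9a and Apol9b and 64568 bases between Rtp3 and Ccrl2. The pairs joined gene families, such as Oasl1 with Oasl2, Ifit3 with Ifit2 and Ifit3b, and Ccl2 with Ccl7, but also genes that are not related. Heatr9, listed at 0 in mock and at 1.69, 2.19 and 1.60 FPKM in the interferon-high libraries, lies 3283 bases from Ccl5 on chromosome 11. Zbtb3, a zinc finger gene with a difference of 1.12, lies 3931 bases from Polr2g on chromosome 19. Reads of near-identical genes can be divided in more than one way, and 14 of the 75 raised genes with transcripts in the reference shared over 20% of the 31-base stretches of those transcripts with another gene. Oas1a shared 68.8% and Oas1g 55.1%, Apol9b 64.9%, Ifit3 61.8% and Ifit3b 55.3%, so that the division of their signal within each family is uncertain. Trex1, a DNA exonuclease with a difference of 1.25, shared 97.6%, with Atrip among the genes that hold its sequence. Isg15 shared 13.1% and Cxcl10 4.47%.

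Promoter sequence played no part in the choice of libraries, but the sets of genes below come from the contrast that chose them and are described without a test. GAAANNGAA was found in a window of 24 of 56 raised genes with one (42.9%), of 687 of 8268 genes compared (8.31%) and of 9.76% of all genes with a window. Among genes raised by at least 2 it was found for 15 of 20 (75%), among those raised by 0.5 to 1 for 17 of 68 (25%) and among those lowered by at least 0.5 for 1 of 47 (2.13%). The raised genes on no list held it in 6 of 26 (23.1%). Of the 56 raised genes with a window, 24 passed the filter through the interferon-high libraries alone, 11 of them with the letters. For genes with at least 1 FPKM in a mock library, the letters were found for 13 of 32 raised genes (40.6%), 9 of 12 raised by at least 2 (75%), 13 of 54 raised by 0.5 to 1 (24.1%) and 671 of 8221 compared (8.16%). Of 40 distinct matches in raised genes, 30 were centred within the 200 bases before the start (75%) and 21 within 100 (52.5%). Over all genes compared these shares were 68.2% and 28.7% of 762 matches. GGANTTTCC was found for 6 of 56 raised genes (10.7%) and for 1.57% of genes compared. A match is a description of the sequence and not a site in use.

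**Figure D5:**
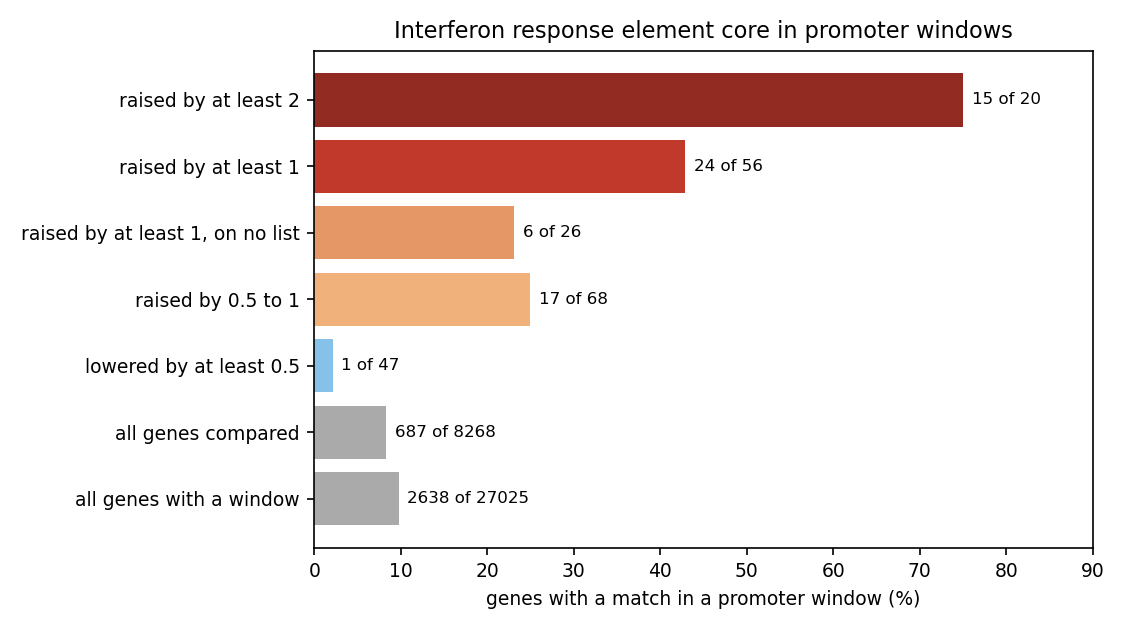
Bars give the share of genes (horizontal, %) with at least 1 match to the core of the interferon-stimulated response element in a promoter window, with the counts beside them. The share is 75% for genes raised by at least 2 and 8.31% for all genes compared.

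In the other 6 libraries the raised genes stayed near mock. With the mock mean at 0 and the interferon-high mean at 1, the median position of the 76 genes was 0.062 in the library labelled pEGFP-N1 replicate 2, 0.041 and 0.118 in BX795 plus pEGFP-N1 replicates 2 and 3, and 0.090, 0.039 and 0.027 in BX795 replicates 1 to 3. For 70 of the 76 genes all of these 6 libraries lay below all 3 interferon-high libraries, against 15.7% of all genes compared. The choice of libraries and of genes sets much of this, so nothing is read from it. Cxcl10 reached 1.58 FPKM in the library labelled pEGFP-N1 replicate 2, 5.68 and 6.47 FPKM in BX795 plus pEGFP-N1 replicates 2 and 3, and 7.86, 0.90 and 1.85 FPKM in BX795 replicates 1 to 3, all above mock. Rsad2 did not exceed 0.11 FPKM in any of the 6.

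Some raised genes stood above mock in the other 6 libraries as well. For 20 of the 76 all of those 6 libraries exceeded all mock values, against 12.7% of all genes compared, and these included Tlr2, Ccl2, Ccl7, Slpi, Tapbp, Irf1 and Plk2. Tapbp read 73.80 FPKM in the library labelled pEGFP-N1 replicate 2 and 67.38, 70.28 and 71.08 FPKM in the BX795 libraries. For 5 genes the other 6 libraries lay below mock, against 8.85% of all genes compared. Loxl3, a collagen-modifying oxidase, read 13.29, 12.68 and 13.05 FPKM in mock, 28.46, 28.55 and 27.86 FPKM in the interferon-high libraries and 5.91 to 7.94 FPKM in the other 6. Ifi207, Ifi44, Usp18 and Efhd2 shared this order.

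By label, the comparison that uses no measured value, few genes passed. In limma on log2(FPKM + 1) over all 12 libraries, calls needed an adjusted p under 0.05 and a difference of at least 1. Genes with a smaller difference are not counted. By this rule 4 of 10412 genes (0.0384%) were higher in pEGFP-N1 than in mock and 0 lower. At any difference, 488 had an unadjusted p under 0.05. The 3 pEGFP-N1 libraries include replicate 2, whose profile is described above. Ccl2 was higher by 1.17 (SE 0.14, limma adjusted p = 0.0128), Tlr2 by 1.24 (SE 0.15, limma adjusted p = 0.0158), Slpi, an inhibitor of serine proteases, by 1.11 (SE 0.17, limma adjusted p = 0.0473) and Ccl7 by 1.11 (SE 0.17, limma adjusted p = 0.0473). With the replicate number as a block, Slpi no longer passed (limma adjusted p = 0.0589). Ccl2 read 908.44, 695.89 and 872.38 FPKM in pEGFP-N1 replicates 1 to 3. All 4 genes stood above mock in all 3 pEGFP-N1 libraries, whereas Ccl5, at 0.21 FPKM in replicate 2, did not pass. Leaving out 1 library changed the count to between 0 and 11, the latter without pEGFP-N1 replicate 2 and 0 without any other library of these 2 groups.

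Between BX795 and mock, which share their control libraries with the comparison above, limma called 4 genes higher (0.0384%) and 3 lower (0.0288%). Here an adjusted p under 0.05 was enough, with no limit on the difference, so the counts by label rest on unlike rules. Tlr2 was higher by 1.27 (limma adjusted p = 0.0109), Ccl2 by 1.08 (limma adjusted p = 0.0119) and Tapbp by 0.76 (limma adjusted p = 0.0109), with Gm40378 as the fourth. Without BX795 replicate 1 or 3 limma called 2 or 3 genes, and without any other library of these 2 groups 0. Errfi1 and Epha2, which respond to ERK signalling, and the cholesterol exporter Abca1 were lower, by -0.77, -0.78 and -0.74. Abca1 no longer passed with the replicate number as a block (limma adjusted p = 0.0650). In the interferon-high libraries Errfi1 and Epha2 each differed from mock by -0.45 and Abca1 by -0.59. Fitted on these 2 groups alone, limma called 2150 genes.

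The lowered genes named here were chosen after their values were seen. Of the 61 genes lowered by at least 0.5, 3 stood on a list (Col1a2, Pdgfrb and Abca1). Aqp5, a water channel, read 128.34, 130.33 and 124.40 FPKM in mock and 71.88, 65.59 and 70.74 FPKM in the interferon-high libraries, a difference of -0.87. Filip1l (-0.82), the focal adhesion protein Tns2 (-0.79), the growth factor Fgf7 (-0.72), the interleukin 1 receptor Il1r1 (-0.71) and the vitamin D receptor Vdr (-0.69) were also lower. For 49 of the 61 the other 6 libraries all lay above the 3 interferon-high libraries, and for 11 they also lay above mock, against 22.4% and 9.86% of all genes compared. Fgf7 read 21.73 to 21.82 FPKM in mock, 12.77 to 12.90 FPKM in the interferon-high libraries and 29.78 to 40.79 FPKM in the other 6, and Vdr 9.85 to 10.21, 5.77 to 5.92 and 15.65 to 23.43 FPKM.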

How the data were processed

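Total RNA of 12 L929 libraries was sequenced on a BGISEQ-500. The authors aligned reads to GRCm38.p5 with Bowtie2 2.2.5, and RSEM gave the FPKM of each gene. The deposited FPKM table, rounded to 2 decimals, names genes by Entrez identifier, of which 17450 of 17571 were found in RefSeq and 121 were not. Counts were not used here, so sequencing depth is unknown, and a value of 0 can be a failed estimate. FPKM sums ran from 467348 to 513761.

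The interferon-high libraries, gene lists and promoter motifs were chosen with earlier results of these data known. Their comparison with mock on log2(FPKM + 1), for genes of at least 1 FPKM in at least 3 of the 6 libraries, is descriptive. A fold on this scale understates the change of low genes. By label, limma 3.58.1 (R 4.3.3) fitted 4 group means to all 12 libraries, with empirical Bayes moderation with a trend and Benjamini-Hochberg adjustment, for 10412 genes. Calls by label needed an adjusted p under 0.05, and for pEGFP-N1 against mock also a difference of at least 1. The study's own test needs read counts. The 236 inhibitor genes came from a fit of BX795 and mock alone, at an unadjusted p under 0.001 and a difference of at least 0.5, with raised and lowered genes removed. Named genes are the 25 largest raised genes with at least 5 FPKM, list members by role and genes called by label. Scripts were tested on simulated data. Python 3.11.15 with numpy 2.4.6, pandas 2.3.3 and matplotlib 3.10.9 was used. Promoter windows came from RefSeq (GRCm38.p6) and were found for 56 of the 76 raised genes. Alternatives were other pseudocounts, filters, scalings, thresholds, a replicate block and leaving out each library.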

Additional observations from a re-analysis of the deposited data

Results flagged for a closer look

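For 6 raised genes, a library outside the comparison reached the interferon-high range. Ccl2 read 945.89 FPKM in BX795 replicate 1 and 987.81 FPKM in BX795 plus pEGFP-N1 replicate 2, above the highest interferon-high value of 908.44 FPKM. Tlr2, a receptor of bacterial lipopeptides, read 21.97 FPKM in BX795 replicate 1 and 24.12 and 20.02 FPKM in BX795 plus pEGFP-N1 replicates 2 and 3, against at most 19.34 FPKM in an interferon-high library. Slpi read 19.43 FPKM in BX795 replicate 2, just over the lowest interferon-high value of 19.40 FPKM. Slfn2, a regulator of lymphocyte quiescence, read 3.82 FPKM in BX795 replicate 1 and 4.27 FPKM in BX795 plus pEGFP-N1 replicate 2, between the interferon-high values of 3.31 and 4.96 FPKM.

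H2-T24, a class I gene, read 15.59 FPKM in BX795 plus pEGFP-N1 replicate 3, against 4.52, 4.01 and 4.53 FPKM in the interferon-high libraries and at most 0.97 FPKM in mock. Among the other 6 libraries its values otherwise ran from 0.34 to 0.88 FPKM, so 1 library alone stood high.

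The sixth, a gene without a symbol in RefSeq, read 11.08 and 6.47 FPKM in BX795 replicates 1 and 2 and 6.09 FPKM in BX795 plus pEGFP-N1 replicate 2, against 5.62 to 11.90 FPKM in the interferon-high libraries (Entrez identifier 108168691), and it varied widely in mock too.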

How the results depend on the processing

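The count of 76 raised genes became 44 with a mean of at least 5 FPKM, 26 with a difference of at least 2 and, as settings chosen after seeing the data, 170 with a difference of at least 0.5 and 44 without BX795 plus pEGFP-N1 replicate 1 when the filter ran over the 5 libraries left. The last filter admits no gene through 2 libraries alone. With the filter held, leaving out 1 library gave 73 to 79 raised genes, 72 to 76 of them shared. A pseudocount of 0.1 gave 102, TPM 90 and no filter 77. The 2 lowered genes became 6 with a pseudocount of 0.1, 4 with TPM, 0 with a mean of at least 5 FPKM or a difference of at least 2, 61 with a difference of at least 0.5, and 2 to 5 with 1 library left out. None of 250 values of named genes turned its sign, and 49 shifted by more than the spread between libraries. Of 180 list medians, 14 shifted by more than that spread. A turn of sign was counted only for lists with a main median of at least 0.5 in size, and none was found there. Medians nearer to mock were not checked for sign.

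For pEGFP-N1 against mock, limma called 0 genes without a filter (851 with an unadjusted p under 0.05), 2 with quantile normalization and 2 without the trend, and 0 to 11 with 1 library left out, with 287 to 1341 at an unadjusted p under 0.05. For BX795 against mock it called 2150 with only these 2 groups and 0 to 3 with 1 library left out (2 without BX795 replicate 1, 3 without BX795 replicate 3, 0 without any other, with 795 to 1515 at an unadjusted p under 0.05). The cause was not tested. With the replicate number as a block, limma called 3 genes for pEGFP-N1, Slpi being lost (limma adjusted p = 0.0589), and 7 for BX795, Abca1 being lost (limma adjusted p = 0.0650). Same-numbered libraries of mock and pEGFP-N1 correlated, as deviations from their group means, at 0.0862, 0.0818 and -0.0146. These values cannot show whether equal numbers mark a shared culture or batch, since pEGFP-N1 replicate 2 differs in profile from replicates 1 and 3. FPKM hold no depth, so no counting error can be given.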

Other observations

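Xaf1, a gene linked to apoptosis with a difference of 2.17, read 6.59 FPKM in BX795 plus pEGFP-N1 replicate 3, against 0.87 to 1.31 FPKM in the other 5 libraries outside the comparison and 8.47 to 11.08 FPKM in the interferon-high libraries. This is the library in which H2-T24 also stood apart. A gene without a symbol in RefSeq was counted as raised although its interferon-high libraries varied the most of all raised genes. Their SD was 0.51 on the log2 scale, and that of its mock libraries was 1.42. Without mock replicate 2, listed at 0, its difference fell from 1.49 to 0.67, under the threshold.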
